A study of Mus musculus with 56 samples.

Results

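The livers compared here were taken at the end of the food window, at opposite ends of the light period. The members were chosen by their labels alone: the 4 libraries of daytime-restricted feeding (DRF) at zeitgeber time 12 h (ZT12, lights off) and the 4 libraries of nighttime-restricted feeding (NRF) at ZT24 (lights on), 8 libraries of 56 in all. All mice were female C57BL/6J, 9 weeks old, with normal chow, 12 h of light per day and 7 days of acclimation before 7 days on their regimen. DRF mice could eat for the 12 h of light and NRF mice, the reference, for the 12 h of darkness, and each regimen was sampled every 4 h with 4 animals per time. In DRF ZT12 and NRF ZT24 the food window had just closed, so that time since the start of food access was matched while lighting was reversed. The opposite pair, NRF ZT12 and DRF ZT24, was taken after 12 h without food, shares no library with the first and served as the fasted counterpart (4 libraries each). Regimen and time of day differ together between DRF ZT12 and NRF ZT24 and cannot be told apart from this pair alone.

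The liver clock is a feedback loop in which BMAL1 (Arntl) with CLOCK or NPAS2 drives transcription of its own repressors, the period and cryptochrome proteins and the nuclear receptors REV-ERBα and REV-ERBβ (Nr1d1, Nr1d2). The PAR bZIP factors DBP, TEF and HLF carry the rhythm to output genes. Meal time is the main time cue of the liver clock, whereas light acts through the central clock in the brain and through nerves, hormones and body temperature.

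Gene levels are given as scaled counts, meaning whole counts worked back from the deposited values and put on a common scale per library. Gene length is not taken out, so a level may be set against another library's but not against another gene's. A log2 difference is DRF ZT12 minus NRF ZT24 on log2(scaled count + 1) with its standard error (SE), which makes the change of low genes look smaller than it is, and a call means a limma p under 0.05 after Benjamini-Hochberg adjustment over the 25415 genes tested. Recovered counts lay between 379 and 622 M per library in DRF ZT12 and between 519 and 570 M in NRF ZT24 (M stands for 1000000), and replicates correlated across genes at r of 0.981 to 0.987. The tissue was taken from the labels. All 10 hepatocyte markers were listed, which does not test the label, as all lymphocyte markers were listed too. Their summed levels were 122820 to 131330 in DRF ZT12 and 121940 to 157490 in NRF ZT24 (two-sided exact permutation p = 0.343). Of the 10 hepatocyte markers, 1 was called higher in DRF ZT12 (Cyp2e1) and 0 lower. Of all genes, 0.830% were called higher and 0.759% lower, so few calls are to be expected in lists this short. Of the markers of other cells, the endothelial, Kupffer, stellate, bile duct, lymphocyte, neutrophil, erythroid and fat cell lists held 0 called genes, with 11 below an unadjusted limma p of 0.05. Of all 25415 genes, 3521 were below that p. All 7 erythroid differences were positive (median 0.53, 4 below that p) and all 10 lymphocyte differences were negative (median -0.10). The endothelial, Kupffer, stellate, bile duct, neutrophil and fat cell lists held both signs. Summed erythroid markers were 913 to 1577 in DRF ZT12 and 668 to 1053 in NRF ZT24 (two-sided exact permutation p = 0.0571), and the elastase gene Cela1, a marker of acinar pancreas, was lower in DRF ZT12 by 0.69 on the log2 scale (limma adjusted p = 0.00114), while 6 of the 8 acinar markers were not listed. The 2 listed acinar markers summed to 1.88 to 2.50 in DRF ZT12 and 3.33 to 4.99 in NRF ZT24 (two-sided exact permutation p = 0.0286, the smallest allowed). The other listed marker, Cela2a, had a log2 difference of -0.016 without a call, so the sum mostly repeats the difference of Cela1. In bulk tissue, fewer cells of a type and less RNA per cell cannot be told apart.

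At the end of feeding, 404 of 25415 genes (1.59%) differed between DRF ZT12 and NRF ZT24, 211 of them higher in DRF ZT12 (0.830%) and 193 lower (0.759%). Against NRF ZT0, the other NRF group taken as a food window closed, 2536 genes differed (9.98%), and against the mean of NRF ZT0 and ZT24 1190 did (4.68%). Most differences from NRF ZT24 were small: among the 13756 genes with a mean scaled count of at least 1, 95.1% lay within 0.5 of 0 on the log2 scale, the median log2 difference was 0.01 and the median absolute one was 0.124. The called genes had a median absolute log2 difference of 0.456, and 18 of them rose by at least 1 log2 unit and 19 fell by as much. In 360 of the 404, every library of one group lay above every library of the other, where 4.40% of all genes had DRF ZT12 wholly above and 4.26% had NRF ZT24 wholly above. The calls were made on these same libraries, so such separation is partly built in and gives them no separate support. The number of calls leaned on the spread shared by all 14 groups: a fit on the 8 libraries alone called 26 genes, and of the 58 called genes that the naming rule picked it kept Loxl4, Nr1d2, Dbp, Suclg2 and Apol9a. Without a single library the count fell to 182 (NRF ZT24 replicate 4), 213 (DRF ZT12 replicate 2), 234 (NRF ZT24 replicate 2) or 268 (DRF ZT12 replicate 3). On the deposited values in place of scaled counts 189 genes were called, with 75 higher and 114 lower.

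To place this difference within the day, DRF ZT12 was set against each NRF time and NRF ZT24 against each DRF time in the same limma fit. From DRF ZT12, the NRF groups differed in 2536 genes at ZT0 (9.98%), then in order of time in 4155 (16.3%), 5539 (21.8%), 3852 (15.2%), 2012 (7.92%) and 769 (3.03%), down to the 404 of NRF ZT24. From NRF ZT24, the DRF groups differed in 5926 genes at ZT0 (23.3%), then in 5504 (21.7%) and 3849 (15.1%), in the 404 of DRF ZT12, and later in 2706 (10.6%), 3487 (13.7%) and 3571 (14.1%). Of these pairings DRF ZT12 with NRF ZT24 had the smallest count, but DRF ZT12 with NRF ZT0, also matched for the end of feeding, had more calls than with NRF ZT16 or ZT20. By the median absolute log2 difference over 13756 genes, DRF ZT12 lay closer to NRF ZT20 (0.118) than to NRF ZT24 (0.124). The comparisons in each series share 4 libraries, and their counts and medians were not tested against each other. NRF ZT0 and NRF ZT24 are the same point of the light cycle and both close a food window, yet 1988 genes differed between them, 585 higher and 1403 lower at ZT24, so that the count depends strongly on which of them serves as reference. Libraries also differed in a length index, the rank correlation over 13756 genes of exon length with a library's deviation from each gene's mean. It ran from -0.32 to 0.03 in NRF ZT0, from 0.10 to 0.17 in DRF ZT12 and from 0.06 to 0.26 in NRF ZT24. In the DRF groups at ZT0, ZT4 and ZT8 it ran from -0.30 to -0.06. How far this bears on the counts by time was not tested.

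**Figure D1:**
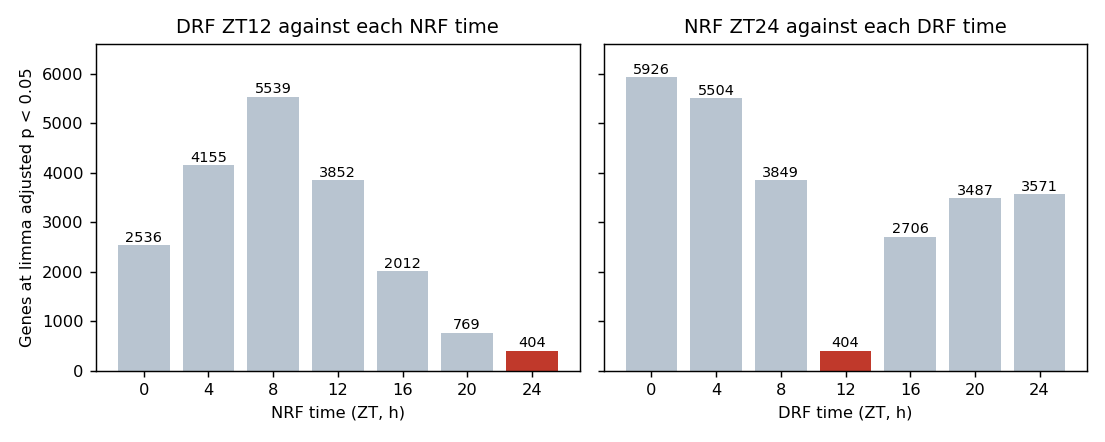
Number of genes called (limma adjusted p under 0.05, of 25415) for DRF ZT12 against each NRF time and for NRF ZT24 against each DRF time, by ZT in hours (4 libraries per group). Both series have their lowest point, 404 genes, at DRF ZT12 with NRF ZT24, whereas NRF ZT0, also an end of feeding, gives 2536, above the 2012 of NRF ZT16 and the 769 of NRF ZT20.

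Among the called genes were members of the circadian clock. Of the 29 clock genes examined, 8 were called (27.6%, beside 1.59% of all genes): of 10 repressors 4 rose and 0 fell (median log2 difference 0.29), of 14 output factors and targets 3 rose and 0 fell (median 0.17), and of 5 activators 0 rose and 1 fell (median -0.15), beside a median of -0.0009 over all genes tested. Thus Nr1d1, Nr1d2, Per1, Per3, Dbp, Tef and Tspan4 stood higher, and Npas2 lower, in livers that had finished feeding at lights off than in those that had finished at lights on. On the deposited values Npas2 and Per3 were not called (-0.46 and 0.40, limma adjusted p = 0.466 and 0.0759), whereas Ciart, a further repressor, was (1.25, limma adjusted p = 0.0463). In both groups Nr1d2, Nr1d1, Dbp and Tef were near the low point of their day.

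Nr1d2, on chr14:18204054-18239127 (GRCm38), had scaled counts of 40.8, 43.4, 33.9 and 31.9 in DRF ZT12 and 18.1, 11.7, 12.4 and 14.4 in NRF ZT24. All DRF libraries lay above all NRF libraries, by 1.35 ± 0.17 (SE) on the log2 scale (limma adjusted p = 3.26e-06). DRF ZT12 was the lowest of the DRF means (37.5 against a highest of 177), and the NRF means ran from 13.3 at ZT0 to 215 at ZT12. The related receptor gene Nr1d1 read 3.79, 3.13, 6.22 and 3.39 in DRF ZT12 and 1.23, 0.644, 1.21 and 1.74 in NRF ZT24, also without overlap (1.21 ± 0.31, limma adjusted p = 0.0326). Its call was lost without DRF ZT12 replicate 1 or 3 or NRF ZT24 replicate 2 or 3 (limma adjusted p up to 0.133), and against NRF ZT0 its difference was 0.47 (limma adjusted p = 0.4). Of its exon bases 8.55% overlap Thra on the opposite strand.

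Per1, a repressor that also responds directly to glucocorticoids and cAMP, had 5.26, 5.70, 6.70 and 9.80 in DRF ZT12 and 2.75, 1.99, 1.02 and 0.914 in NRF ZT24. The groups did not overlap, the ratio of means was 4.12, and the log2 difference was 1.58 ± 0.27 (limma adjusted p = 0.000589), the largest among the clock genes. Per3 read 8.09, 7.68, 4.82 and 5.40 in DRF ZT12 and 5.83, 3.197, 2.66 and 2.74 in NRF ZT24. Here the highest NRF library overlapped the DRF range, and the difference of 0.73 ± 0.20 (limma adjusted p = 0.0437) was not called without DRF ZT12 replicate 1, 2 or 4 or NRF ZT24 replicate 2, 3 or 4 (up to 0.183). Per2 did not pass (0.32 ± 0.26, limma adjusted p = 0.636), and neither did Cry1, Cry2, Bhlhe40, Bhlhe41 or Ciart, whose log2 differences lay between -0.14 and 0.26.

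Dbp, a PAR bZIP factor with a very large daily range, had 2.22, 2.37, 3.27 and 2.02 in DRF ZT12 and 0.752, 0.492, 0.271 and 0.255 in NRF ZT24. The groups did not overlap and the ratio of means was 5.59, although the log2 difference, held down by the pseudocount, was 1.27 ± 0.21 (limma adjusted p = 0.000544), and with a pseudocount of 5 it was 0.46 (limma adjusted p = 0.0772). Both groups sat at the bottom of a day whose highest means were 38.9 for DRF and 47.3 for NRF. In its exons, 18.0% of bases overlap Sphk2, on the other strand, and the sources used here do not give whether strand was used in counting. Tef read 22.8, 22.3, 20.9 and 19.2 against 18.6, 15.1, 8.16 and 5.96, a difference of 0.90 ± 0.18 (limma adjusted p = 0.00334) that missed the threshold without NRF ZT24 replicate 4 (0.0547). Hlf gave 0.02 without a call, and Tspan4, a tetraspanin used as a clock target, rose from 10.8, 7.67, 10.4 and 8.95 in NRF ZT24 to 13.1, 17.6, 19.4 and 16.4 (0.75 ± 0.15, limma adjusted p = 0.00393).

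Npas2, the CLOCK paralogue that pairs with BMAL1, moved the other way. It read 3.63, 3.25, 4.01 and 3.83 in DRF ZT12 and 5.73, 5.18, 7.34 and 12.3 in NRF ZT24, with no overlap and a difference of -0.82 ± 0.17 (limma adjusted p = 0.00463). Without NRF ZT24 replicate 4, its highest library, the call was lost (0.0744), as it was in the fit on the 8 libraries alone (0.201). Both groups held the highest mean of their regimen's day. Arntl itself read 55.7, 52.1, 62.2 and 59.4 against 73.2, 72.5, 73.1 and 81.2, and these ranges did not overlap either, but -0.38 ± 0.19 did not pass (limma adjusted p = 0.352). Clock gave -0.04 ± 0.16 (limma adjusted p = 0.945), Rora differed by 0.04 without a call, and the other output genes (Nfil3, Wee1, Usp2, Ddc, Lgalsl, Tubb2a, Leo1, Noct, Cys1 and Slc16a12) lay between -0.45 and 0.83 without a call. Of these, Usp2 and Leo1 passed against NRF ZT0 (0.94 and -0.68, limma adjusted p = 0.014 and 0.0194) and against the mean of both NRF groups (0.76 and -0.56, limma adjusted p = 0.0374 and 0.0432).

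**Figure D2:**
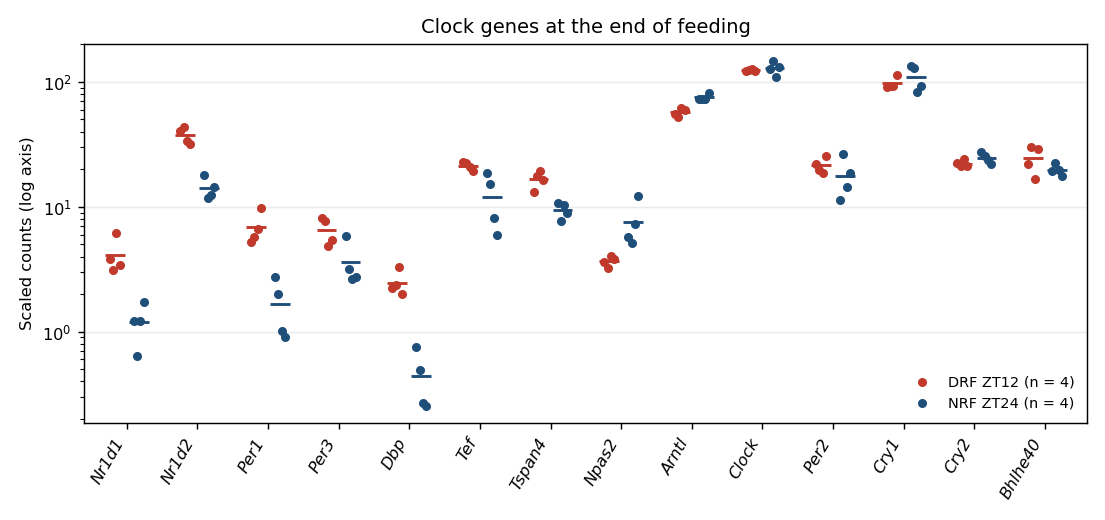
Scaled counts (log axis) of the 8 called clock genes and of 6 that did not pass, in each library, 4 per group, with the group mean as a bar. The DRF ZT12 points lie above the NRF ZT24 points for Nr1d2, Nr1d1, Per1, Dbp, Tef and Tspan4, overlap them for Per3, and lie below them for Npas2 and Arntl. Clock, Per2, Cry1, Cry2 and Bhlhe40 overlap.

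The start regions of 25 of the 29 clock genes could be read from the RefSeq promoter table (GRCm38.p6, 250 bases before to 50 after a start site). The E-box CACGTG, the palindromic site read by BMAL1 with CLOCK, was found in 3 of the 8 called genes (Per1, Tef and Tspan4) and 4 of the 17 not called, against 7.15% of all 32851 promoters. The D-box TTATGTAA, bound by the PAR bZIP factors, was found on either strand in 1 of the 8 (Per3, with 2 copies), in 1 of the 17 and in 0.938% of all promoters. Windows of Per1 and Per3 are printed because these period genes were called and hold one kind of site each, which stands in capitals. Per1 is chr11:69098699-69098998 on the plus strand and Per3 is chr4:151044616-151044915 on the minus strand.
Per1: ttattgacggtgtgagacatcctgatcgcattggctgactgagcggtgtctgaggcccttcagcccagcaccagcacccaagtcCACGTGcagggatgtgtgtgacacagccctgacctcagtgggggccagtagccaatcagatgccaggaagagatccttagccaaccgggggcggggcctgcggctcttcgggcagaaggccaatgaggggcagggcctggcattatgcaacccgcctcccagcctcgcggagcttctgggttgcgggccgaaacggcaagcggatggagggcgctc
Per3: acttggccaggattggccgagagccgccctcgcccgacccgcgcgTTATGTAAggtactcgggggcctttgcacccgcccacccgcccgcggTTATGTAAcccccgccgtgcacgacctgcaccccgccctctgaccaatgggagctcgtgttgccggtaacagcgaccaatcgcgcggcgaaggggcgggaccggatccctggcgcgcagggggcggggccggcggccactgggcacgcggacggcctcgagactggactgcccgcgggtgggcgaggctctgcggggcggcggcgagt
A match is a run of letters only and does not show that a factor was bound.

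Whether the same genes differed between lights off and lights on after fasting was asked in NRF ZT12 against DRF ZT24. That pair had more calls, 2053 genes (8.08%), 1200 higher at ZT12 (4.72%) and 853 lower (3.36%). Of the 211 genes higher in DRF ZT12, 53 (25.1%) were also higher at ZT12 after fasting, 5 (2.37%) were lower and 153 did not pass. Of the 193 lower genes, 48 (24.9%) were also lower at ZT12 after fasting, 8 (4.15%) were higher and 137 did not pass. The main difference is the sum of a time-of-day part (ZT12 minus ZT24, averaged over both regimens) and a regimen part (DRF minus NRF, averaged over both times), which were tested over the 4 groups and so contain the libraries compared above. The time-of-day part had 2487 calls (9.79%) and the regimen part 346 (1.36%). The fasting and time-of-day counts moved from mostly higher to mostly lower under other scalings: fasting had 503 higher and 1533 lower on deposited values and 963 and 1149 with a length correction, and the time-of-day part had 649 and 1934, and 1442 and 4145. The regimen part turned from 145 higher and 201 lower to 84 and 56 on deposited values. Without NRF ZT12 replicate 3 the fasting count was 1165 and the time-of-day count 1621, the latter also falling to 1647 without NRF ZT24 replicate 4, and without DRF ZT12 replicate 1 the regimen count was 205.

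**Figure D3:**
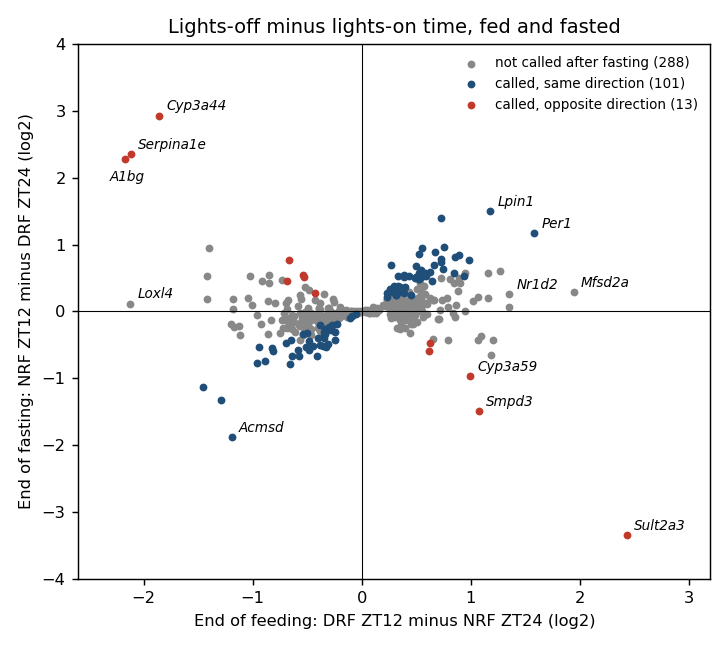
Log2 difference after feeding (x axis, DRF ZT12 minus NRF ZT24) and after fasting (y axis, NRF ZT12 minus DRF ZT24) for 402 of the 404 genes called after feeding, leaving out Gm47287 and Gm47305. After fasting 288 were not called, 101 were called in the same direction and 13 in the opposite one, with Sult2a3, Cyp3a44, Serpina1e and A1bg far from the others.

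Loxl4, a lysyl oxidase that cross-links collagen and elastin in the extracellular matrix, had the smallest p of all genes. On chr19:42593982-42612813, it read 6.81, 6.29, 6.48 and 6.87 in DRF ZT12 and 37.5, 24.4, 31.8 and 36.9 in NRF ZT24. The groups were far apart, with a ratio of means of 4.94 in favour of NRF and a difference of -2.12 ± 0.18 (limma adjusted p = 5.35e-11). After fasting its means were 1.18 in NRF ZT12 and 1.001 in DRF ZT24, a difference of 0.11 (limma adjusted p = 0.794). The fed means were thus above the fasted means under both regimens, with NRF above DRF after feeding, and both the time-of-day part (-1.01) and the regimen part (-1.12) passed (limma adjusted p = 5.42e-07 and 5.14e-07). Against NRF ZT0 the difference was -2.01 (limma adjusted p = 3.13e-10).

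Among the genes higher in DRF ZT12, Mfsd2a stood out by size. It encodes a transporter of lysophosphatidylcholine that carries omega-3 fatty acids, and it read 41.5, 55.3, 50.5 and 59.2 in DRF ZT12 and 12.2, 25.1, 10.9 and 7.28 in NRF ZT24. No library overlapped (1.95 ± 0.33, limma adjusted p = 0.000544), and after fasting both groups were higher, with means of 128 in NRF ZT12 and 104 in DRF ZT24. Suclg2, the GTP-specific subunit of succinyl-CoA ligase in the citric acid cycle, read 763, 879, 752 and 780 in DRF ZT12 and 419, 348, 371 and 352 in NRF ZT24. Its groups were tight and well apart (1.09 ± 0.24, limma adjusted p = 0.00702), although against NRF ZT0 the difference was 0.60 (limma adjusted p = 0.0993). The desmosomal cadherin gene Dsg1c rose by 1.35 ± 0.22 (limma adjusted p = 0.000323), from 3.26 to 7.76 in NRF ZT24 to between 14.1 and 18.8. Lpin1, a phosphatidate phosphatase of triglyceride synthesis, read 57.0, 60.4, 47.7 and 64.7 against 26.8, 13.9, 31.7 and 31.0 (1.18 ± 0.30, limma adjusted p = 0.0293). After fasting it was again higher at ZT12 (1.495, limma adjusted p = 0.000901), but after feeding its call was lost without DRF ZT12 replicate 1, 2 or 4 or NRF ZT24 replicate 2 (up to 0.153).

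Among the genes lower in DRF ZT12, Acmsd, the enzyme that steers tryptophan breakdown away from NAD synthesis, read 55.7, 36.5, 59.97 and 46.0 against 135, 152, 75.4 and 104 in NRF ZT24. It fell by 1.19 on the log2 scale (SE 0.24, limma adjusted p = 0.00357), and after fasting it was again lower at ZT12 (-1.88, limma adjusted p = 1.23e-06). Ccnjl, a cyclin J-like gene, was low in both groups, at 0.78, 1.68, 0.589 and 0.5 against 3.47, 3.06, 3.80 and 3.67, with log2 differences of -1.29 after feeding (limma adjusted p = 0.000589) and -1.32 after fasting (limma adjusted p = 0.00011). Hapln1, a hyaluronan link protein, read between 1.20 and 2.51 in DRF ZT12 and between 3.46 and 8.73 in NRF ZT24 (-1.42 ± 0.30, limma adjusted p = 0.00632, but -0.71 and 0.137 against NRF ZT0). The short-chain dehydrogenase gene Sdr9c7, Paxx, which acts in DNA end joining, and Ndrg1, a stress-responsive gene, fell by 1.17, 1.05 and 1.01 (limma adjusted p = 0.000589, 0.00145 and 0.00146). Nckap5 (-1.18, limma adjusted p = 0.0032) and the transcription factor gene Tsc22d1 (-1.11, limma adjusted p = 0.0068) also fell, but missed the threshold without NRF ZT24 replicate 4 (0.0514) and without NRF ZT24 replicate 2 (0.0545). Etnppl, an enzyme of ethanolamine phosphate breakdown, was lower by 0.96 (limma adjusted p = 0.0144), lost without DRF ZT12 replicate 1 or NRF ZT24 replicate 2 (up to 0.0995).

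**Figure D4:**
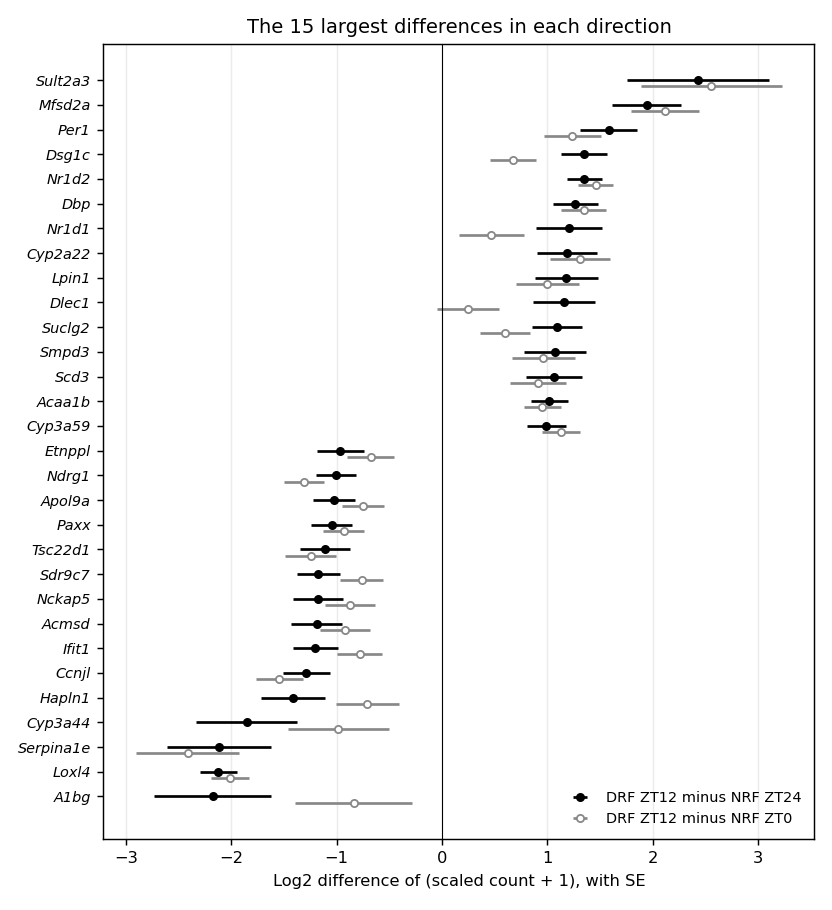
Log2 difference with its SE for the 15 genes that rose most and the 15 that fell most among called genes with separate groups, as DRF ZT12 minus NRF ZT24 (black) and minus NRF ZT0 (grey, open), which share the DRF libraries. The largest rise is Sult2a3 at 2.43 and the largest falls are A1bg at -2.18, Loxl4 at -2.12 and Serpina1e at -2.12.

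For some of the called genes the regimen part passed the test and the time-of-day part did not. Sult2a3, a hydroxysteroid sulfotransferase, read 25.1, 17.7, 13.2 and 26.8 in DRF ZT12 and 4.51, 1.95, 1.52 and 4.54 in NRF ZT24. After fasting the DRF group was again the higher one, with means of 61.9 in DRF ZT24 and 4.92 in NRF ZT12, so that its log2 difference of lights off minus lights on changed sign from 2.43 ± 0.67 (limma adjusted p = 0.0494) to -3.35 (limma adjusted p = 0.000931). The fed call was lost without any single one of the 8 libraries (up to 0.125), while the regimen part was 2.89 ± 0.48 (limma adjusted p = 0.000376). Cyp3a59, a cytochrome P450 of drug and steroid metabolism, followed the same order, at 217, 247, 187 and 196 against 134, 118, 83.7 and 92.7 (0.99 ± 0.18, limma adjusted p = 0.00126) after feeding and -0.97 after fasting. Smpd3, a neutral sphingomyelinase, rose by 1.07 after feeding (limma adjusted p = 0.0487) and fell by 1.49 after fasting, the former lost without DRF ZT12 replicate 1, 2 or 3 or NRF ZT24 replicate 1, 2 or 4 (up to 0.192).

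The reverse order, lower under DRF in both pairs, held for others of these genes. Serpina1e, a member of the α1-antitrypsin cluster, read 185, 178, 242 and 196 in DRF ZT12 and 933, 1595, 1213 and 314 in NRF ZT24 (-2.12 ± 0.49, limma adjusted p = 0.0146, and 0.0791 without NRF ZT24 replicate 2), and 2.35 after fasting. Cyp3a44 read 111, 48.6, 109 and 179 against 202, 457, 574 and 355 (-1.86 ± 0.48, limma adjusted p = 0.0318), and A1bg, a plasma glycoprotein, 18.5, 26.1, 27.7 and 62.7 against 80.8, 71.4, 363 and 185 (-2.18 ± 0.56, limma adjusted p = 0.0303). Libraries within a group differed several-fold. The groups did not overlap, but this was a condition for being named among the largest differences and gives no separate support. The call of Cyp3a44 was lost without DRF ZT12 replicate 1, 2 or 3 or NRF ZT24 replicate 2, 3 or 4 (up to 0.16), and that of A1bg without DRF ZT12 replicate 1, 2 or 3 or NRF ZT24 replicate 3 or 4 (up to 0.13). Against NRF ZT0 neither passed, at -0.98 (limma adjusted p = 0.203) and -0.84 (limma adjusted p = 0.398). Their regimen parts were -2.24 for Serpina1e, -2.39 for Cyp3a44 and -2.22 for A1bg (limma adjusted p = 0.000187, 4.1e-05 and 0.000907). Apcs, the serum amyloid P component, and Abca2, a lipid transporter, were smaller cases, lower by 0.67 and 0.43 in DRF ZT12 (limma adjusted p = 0.0101 and 0.000589) with regimen parts of -0.72 and -0.35. Apcs was not called without DRF ZT12 replicate 2 or NRF ZT24 replicate 4 (up to 0.0664), nor against NRF ZT0 (0.11). Of further genes with a regimen part, Cyp2a22, another P450, and Scd3, a stearoyl-CoA desaturase, rose by 1.19 and 1.07 (limma adjusted p = 0.0206 and 0.0274), and Apol9a, of the apolipoprotein L family, fell by 1.03 (limma adjusted p = 0.00243). Cyp2a22 was not called without DRF ZT12 replicate 2 or 4 or NRF ZT24 replicate 2 or 3 (up to 0.0838), nor Scd3 without DRF ZT12 replicate 1 or 3 or NRF ZT24 replicate 2 or 4 (up to 0.117). Sult2a3, the P450 genes, Scd3, Apol9a and Serpina1e have close paralogues among which reads could be split, so their values are uncertain. In the list of 20 genes of the growth hormone axis and sex-biased liver expression, Sult2a3 rose, Serpina1e fell and 18 did not pass (median 0.03). Of all genes, 0.830% rose and 0.759% fell.

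Other called genes differed by time of day after feeding and after fasting. Timp3, an inhibitor of matrix metalloproteinases, had the smallest p of the time-of-day part among the called genes, at 21.7, 23.7, 26.1 and 23.9 in DRF ZT12 and 16.9, 14.8, 16.7 and 15.04 in NRF ZT24 (0.56 ± 0.08, limma adjusted p = 3.84e-05) and 0.96 after fasting. Of its exon bases 21.3% overlap Syn3 on the opposite strand. Mthfd1l, a mitochondrial enzyme that makes formate, rose by 0.72 after feeding (limma adjusted p = 0.0175) and by 1.39 after fasting. Ckap5, a microtubule polymerase, fell by 0.31 (limma adjusted p = 0.00689, but 0.447 against NRF ZT0) and by 0.49. Tnfrsf1b, a receptor of tumour necrosis factor, rose by 0.27 (limma adjusted p = 0.0429) and by 0.69. The fed call of Mthfd1l was lost without DRF ZT12 replicate 4 or NRF ZT24 replicate 1 or 3 (up to 0.0826), and that of Tnfrsf1b without DRF ZT12 replicate 1, 2 or 3 or NRF ZT24 replicate 3 or 4 (up to 0.196).

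Lipid genes differed in parts of each pathway. Of 17 genes of fatty acid synthesis 4 rose and 0 fell (median 0.36), where 0.830% of all genes rose and 0.759% fell, a background that also holds for the counts of the lists that follow, and apart from Lpin1 these were the desaturases and elongase of polyunsaturated fatty acids. Fads2 read 722, 595, 521 and 566 in DRF ZT12 and 425, 348, 407 and 332 in NRF ZT24 (0.66 ± 0.11, limma adjusted p = 0.000589), without overlap. Fads1 rose by 0.44 and Elovl5 by 0.54 (limma adjusted p = 0.0274 and 0.0494), the former not called without DRF ZT12 replicate 1, 2 or 4 or NRF ZT24 replicate 2 or 4 (up to 0.156) and the latter without any DRF ZT12 library or NRF ZT24 replicate 2 or 4 (up to 0.253). The core enzymes of fatty acid synthesis gave -0.06 for Fasn (limma adjusted p = 0.966) and -0.04 for Acaca (limma adjusted p = 0.96), with SEs of 0.38 and 0.22. Of 20 genes of fatty acid oxidation and ketogenesis 3 rose and 0 fell (median 0.33). Ehhadh, a peroxisomal enzyme of fatty acid oxidation, read 1107, 1144, 807 and 905 against 652, 517, 570 and 448 (0.86 ± 0.16, limma adjusted p = 0.00143), without overlap. Acaa1b, a peroxisomal thiolase, read 838, 990, 684 and 694 against 513, 361, 431 and 290 (1.02 ± 0.18, limma adjusted p = 0.000589). Its exons overlap those of Dlec1 on the other strand by 11.4%, and Dlec1 rose by 1.16 (limma adjusted p = 0.0296), a call lost without DRF ZT12 replicate 1 or 2 or NRF ZT24 replicate 2 or 4 (up to 0.161) and absent against NRF ZT0 (0.25, limma adjusted p = 0.702). Mitochondrial Acadl rose by 0.33 (limma adjusted p = 0.032), lost without DRF ZT12 replicate 1, 2 or 4 or NRF ZT24 replicate 2, 3 or 4 (up to 0.149), whereas Cpt1a, at 0.47, did not pass (limma adjusted p = 0.0643).

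In sterol metabolism the calls fell on the biliary export pump. Abcg5, which with Abcg8 forms the pump that moves cholesterol into bile, read 135, 165, 111 and 128 in DRF ZT12 and 74.0, 81.8, 64.9 and 57.4 in NRF ZT24 (0.94 ± 0.14, limma adjusted p = 0.000103). Abcg8 rose from 25.7, 25.4, 18.9 and 18.5 to 39.2, 52.2, 33.4 and 43.4 (0.89 ± 0.18, limma adjusted p = 0.00334, but 0.0613 against NRF ZT0). Both were without overlap, and they were the 2 called genes of 15 in bile acid synthesis and transport (0 fell, median -0.08). Cyp7a1, the rate-limiting enzyme of bile acid synthesis, gave -0.21 ± 0.38 (limma adjusted p = 0.867), and the uptake transporter Slco1a1 gave -1.72 (limma adjusted p = 0.0779). None of the 20 genes of cholesterol synthesis was called by limma, 4 being below an unadjusted p of 0.05 (3521 of all 25415 genes were), although 19 of the 20 differences were positive (median 0.18). Of 9 listed genes of their SREBP control 0 were called, with 1 below that unadjusted p.

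In the other lists, at most 2 genes were called. Of 15 glucocorticoid response genes 2 rose (median 0.54), Per1 and the cell cycle inhibitor Cdkn1a, which read 4.38, 6.30, 4.44 and 4.93 against 2.38, 1.70, 2.44 and 1.91 (0.95 ± 0.24, limma adjusted p = 0.0303) but lost its call without DRF ZT12 replicate 2 or 4 or NRF ZT24 replicate 2 or 4 (up to 0.118). Cdkn1a was also the single call among 15 cell cycle genes. Of 20 heat shock genes 0 rose and 2 fell (median -0.20): the small heat shock protein Hspb1 by 0.64 and Hspa4 by 0.28 on the log2 scale (limma adjusted p = 0.0399 and 0.0428). Both depended on nearly every library, Hspb1 losing its call without any DRF ZT12 library or NRF ZT24 replicate 1 or 2 (up to 0.131) and Hspa4 without any library other than NRF ZT24 replicate 1 (up to 0.126), and the latter was not called against NRF ZT0 (limma adjusted p = 0.488). Of 20 genes of the unfolded protein response 1 rose and 1 fell (median -0.22), Herpud1 by 0.74 and the disulfide isomerase Pdia6 by 0.48 (limma adjusted p = 0.0416 and 0.0403). Herpud1 missed the threshold without DRF ZT12 replicate 3 or 4 or NRF ZT24 replicate 1, 2 or 4 (up to 0.254) and against NRF ZT0 (0.13, limma adjusted p = 0.799), and Pdia6, whose groups overlapped, without DRF ZT12 replicate 1 or 2 or NRF ZT24 replicate 1, 3 or 4 (up to 0.214).

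Single calls in further lists were Pfkfb1, which makes the glycolytic activator fructose-2,6-bisphosphate (0.50, limma adjusted p = 0.016, of 15 glucose and glycogen genes), Cyp2e1, the ethanol-oxidising P450 (0.53, limma adjusted p = 0.0286, of 16 drug metabolism genes) and Cbs of transsulfuration (-0.35, limma adjusted p = 0.0305, of 15 NAD and one-carbon genes). Each was lost without some libraries: Pfkfb1 without DRF ZT12 replicate 4 or NRF ZT24 replicate 2 (up to 0.0742), Cyp2e1 without DRF ZT12 replicate 2 or 3 or NRF ZT24 replicate 4 (up to 0.17), and Cbs without DRF ZT12 replicate 1 or 2 or NRF ZT24 replicate 1 or 2 (up to 0.116). Of 15 matrix genes 2 rose, Timp3 and Ccbe1 (0.57, limma adjusted p = 0.000323). Limma called 0 genes in the lists for gluconeogenesis (13 genes, 4 below an unadjusted p of 0.05), insulin and FOXO signalling (13, 3), cold-inducible proteins (3, 2), immediate early genes (14, 0), the integrated stress response (15, 2), amino acid breakdown and urea cycle (20, 4), ribosome biogenesis (15, 1), proteasome (13, 0), autophagy (12, 3) and acute phase proteins (17, 2). Of all 25415 genes tested, 3521 were below that unadjusted p.

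A further group was recognised only among the called genes themselves: interferon-stimulated genes, which encode antiviral proteins. A list of 29 such genes was written after their values had been seen, so its counts are a description with no test. Of the 29, 0 were called higher and 13 lower in DRF ZT12 (0.759% of all genes were lower), all 29 differences were negative with a median of -0.55, and in 24 every NRF ZT24 library lay above every DRF ZT12 library, which held for 4.26% of all genes. Ifit1, which binds viral RNA, read 5.94, 6.06, 3.92 and 4.34 in DRF ZT12 and 13.4, 10.9, 10.8 and 16.98 in NRF ZT24 (-1.20 ± 0.22, limma adjusted p = 0.000996). Mx2, an antiviral GTPase, read 2.91, 2.50, 2.45 and 2.83 against 7.27, 6.97, 5.54 and 8.65 (-1.13 ± 0.15, limma adjusted p = 1.45e-05). Rsad2 (viperin) read 5.45, 6.26, 3.58 and 5.19 against 11.05, 8.07, 9.14 and 14.7 (-0.93 ± 0.20, limma adjusted p = 0.00689). In all 3 the ratio of means was above 2 with no overlap between groups.

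The remaining calls of the list were Ddx60 (-0.96), Gbp6 (-0.92), Igtp (-0.85), Usp18 (-0.79), Cmpk2 (-0.73), Cd274 (-0.70), Samd9l (-0.65), Dhx58 (-0.64), Parp14 (-0.57) and the RNA sensor Ddx58 (-0.49), with limma adjusted p between 0.000664 and 0.0455. Irf7, a transcription factor of the interferon response, read 2.04 to 2.995 in DRF ZT12 and 2.29 to 2.54 in NRF ZT24. Against NRF ZT0 7 of the 29 were lower (5.45% of all genes) and 0 higher (4.53%), and in the fit on the 8 libraries alone 2 were lower, Mx2 and Parp14. When each library was left out in turn between 8 (without NRF ZT24 replicate 4) and 13 were called. After fasting Samd9l alone of the 29 was lower at ZT12 (3.36% of all genes were) and 2 were higher, Oas1a and Irf7 (4.72% of all genes). Markers of immune cells held 0 calls, where 1.59% of all genes were called, and their sums did not pass the test. The 10 lymphocyte markers summed to 1.89 to 3.05 in DRF ZT12 and 2.95 to 4.20 in NRF ZT24 (two-sided exact permutation p = 0.0857). The 7 listed neutrophil markers summed to 1.71 to 2.68 and 2.44 to 3.77 (0.0571 by the same test). The 10 Kupffer and macrophage markers summed to 739 to 1028 and 769 to 1342 (0.286 by the same test). Ly6g was not listed, and no listed marker was at 0 in all 8 libraries. The part of immune cells in the difference was not tested.

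**Figure D5:**
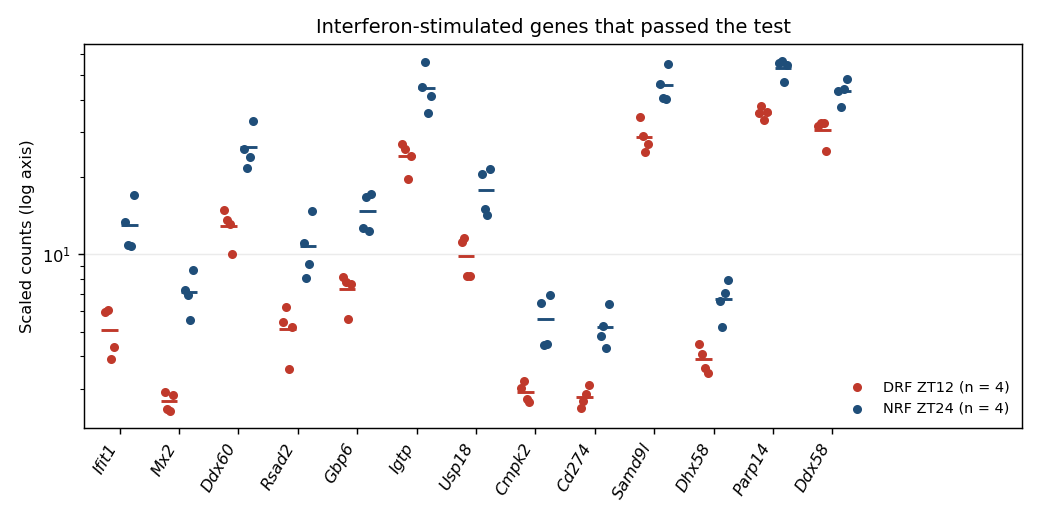
Scaled counts (log axis) of the 13 called interferon-stimulated genes in each library, 4 per group, with the group mean as a bar. All NRF ZT24 points lie above all DRF ZT12 points for each gene.

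The promoter table held 20 of the 29 genes. The core of the interferon response element, read here as GAAA, 2 bases of any kind and GAAA again on either strand, was found in 5 of 8 called and 5 of 12 not called genes, against 3.44% of all promoters. The windows of Ifit1 (chr19:34640639-34640938, plus strand) and Rsad2 (chr12:26456403-26456702, minus strand), 2 of the genes with the largest differences, are printed with the core in capitals as it reads on the gene's strand.
Ifit1: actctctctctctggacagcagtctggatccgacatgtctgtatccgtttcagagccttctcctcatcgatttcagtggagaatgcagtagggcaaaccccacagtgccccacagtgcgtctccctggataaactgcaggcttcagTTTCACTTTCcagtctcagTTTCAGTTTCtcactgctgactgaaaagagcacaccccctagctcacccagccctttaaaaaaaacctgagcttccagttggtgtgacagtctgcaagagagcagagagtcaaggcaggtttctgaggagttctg
Rsad2: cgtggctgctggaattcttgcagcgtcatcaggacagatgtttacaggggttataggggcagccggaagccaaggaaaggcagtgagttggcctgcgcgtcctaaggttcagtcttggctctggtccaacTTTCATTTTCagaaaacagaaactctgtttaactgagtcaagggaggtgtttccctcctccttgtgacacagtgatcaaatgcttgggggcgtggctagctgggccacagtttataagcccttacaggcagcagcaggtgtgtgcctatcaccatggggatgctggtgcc
The genes were picked from a family known for this element, so its share is a description.

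The largest differences of all belonged to entries of 70 bases. Gm47287 read 592, 808, 809 and 964 in DRF ZT12 and at most 0.0019 in NRF ZT24, which is 1 recovered count per library. Gm47305 read 647 to 925 in DRF ZT12 and 0.00174 to 0.00187 in NRF ZT24 except for replicate 3, at 81.3. Both were named after their values were seen. Each lies wholly within a gene for 7SL RNA, the RNA of the signal recognition particle, on the same strand (Rn7s1 and Rn7s2), so reads of the host and of the entry cannot be told apart. Rn7s1 read 1643 to 2370 in DRF ZT12 and 2015 to 4190 in NRF ZT24, which overlapped, and Rn7s2 read 290 to 514 and 569 to 1857, wholly lower in DRF ZT12 and so opposite to the entry within it. Over all 56 libraries Gm47287 was above 50 in 19, taken between ZT12 and ZT20, and Gm47305 in 18, taken between ZT12 and ZT24, and both were at most 0.0033 in the others. Of the 8 libraries compared, this state of Gm47287 was that of the groups, while Gm47305 was above 50 also in NRF ZT24 replicate 3, and how far it bears on other genes was not tested.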

How the data were processed

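RNA of 56 livers was sequenced, and per the protocol in the labels libraries were ribosome-depleted and strand-specific with paired reads, although the labels' molecule field gives polyA. The submitters' processing notes name CASAVA 1.8, featureCounts 1.5.0-p3 and the builds mm10 and GRCm38.p6. Whether strand was used in counting is not given in the sources used here. Besides the overlaps given above, 16.5% of the exon bases of A1bg, 14.1% of Cd274 and 13.4% of Tspan4 overlap a gene on the opposite strand. The authors deposited gene values named TPM, which are not linear in reads and were treated as a score.

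The deposited score multiplied by exon length (GENCODE vM21) followed a·ln(1 + f·k), with whole counts k, a library scale f and a library factor a. Scaled counts are f·k. The curve was fitted on 12124 genes, and of the values of 12123 other genes between 93.29% and 99.15% fell within 0.05 of a whole count, where 10% would by chance. An annotated length gave whole counts for 22964 genes, a length searched on the values for 2208 (Scd3, Fads1, Cbs, Ccbe1 and Cpt1a among those named) and a wider tolerance for 1, and 242 were too deep to judge. Recovered counts exceed the depth of sequencing and are not reads, so no counting error was derived from them, and the spread between animals gives the precision. No replicate pair held identical values (r at most 0.987 across genes).

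Differences were tested with limma 3.58.1 (lmFit, contrasts.fit, eBayes with trend, R 4.3.3) on log2(scaled count + 1) over all 56 libraries in 14 groups, with Benjamini-Hochberg adjustment over 25415 genes and 0 genes filtered. Library sums were compared by exact permutation (smallest two-sided p 0.0286). In simulated data for the main comparison on 25415 genes, 54.4%, 87.9% and 97.0% of changes of 0.5, 1 and 2 log2 units were recovered. A further 10 genes without a change were called, 5.92% of the calls. The simulation drew normal noise with a spread per gene that all 14 groups shared. It changed only genes with a mean scaled count of at least 1, so recovery may be lower in the real data. Because the groups shared their spread, it could not show how many false calls unequal spreads would bring. Tables were handled in Python 3.11.15 with numpy 2.4.6, pandas 2.3.3 and scipy 1.17.1.

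The groups, gene lists and tests were chosen with earlier results of these data known. Named were the 15 genes that rose and the 15 that fell most among those called with separate groups and an Ensembl identifier (no Gm, Rik or pseudogene entries), every clock list member, up to 4 called genes of each other list, and the 5 called genes with the smallest p in each of the time-of-day and regimen parts. Some members of the lists count in the totals but are not reported here by name. The comparisons by time, the interferon list and genes named as such were added after seeing the data. Alternatives covered pseudocounts, low-value filter, scaling, length correction, deposited values, replicate block, reference group and each library left out. Samples are separate animals.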

Additional observations from a re-analysis of the deposited data

Results flagged for a closer look

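Single libraries stood apart from the other 3 of their group in 6 of 158 gene and group combinations, where chance alone marks about 1 in 20. In DRF ZT12, replicate 4 was highest for Noct at 15.7 scaled counts (the others 8.51 to 9.23) and for Cry1 at 113 (90.8 to 93.3). In NRF ZT24, replicate 1 was highest for Per3 at 5.83 (2.66 to 3.197), replicate 2 was lowest for Nfil3 at 49.7 (59.0 to 60.6), and replicate 4 was highest for Arntl at 81.2 (72.5 to 73.2) and lowest for Cyp2e1 at 2562 (3286 to 3352).

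In 19 named genes the log2 difference between ZT12 and ZT24 itself differed between fed and fasted livers, tested as the regimen part in limma, which uses the libraries of the report's comparison. The fed minus the fasted difference was positive for Sult2a3 (5.78, limma adjusted p = 0.000376), Smpd3 (2.57, 0.000367), Cyp3a59 (1.96, 2.01e-05), Cyp2a22 (1.83, 0.0108), Nr1d1 (1.64, 0.0446), Scd3 (1.499, 0.0291), Suclg2 (1.46, 0.0137), Dsg1c (1.28, 0.0202) and Nr1d2 (1.09, 0.00813). It was negative for Cyp3a44 (-4.78, limma adjusted p = 4.1e-05), Serpina1e (-4.48, 0.000187), A1bg (-4.45, 0.000907), Loxl4 (-2.24, 5.14e-07), Hapln1 (-1.61, 0.0425), Apol9a (-1.56, 0.00137), Apcs (-1.44, 8.19e-05), Paxx (-1.25, 0.0104), Ndrg1 (-1.10, 0.0204) and Abca2 (-0.70, 0.000102).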

How the results depend on the processing

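The 404 calls at the end of feeding became 26 in a fit on the compared libraries alone, 189 on deposited values, 2536 against NRF ZT0 and 1190 against the mean of NRF ZT0 and ZT24, and 182 to 474 with 1 library left out. The 2053 fasting calls became 314 on the compared libraries alone and 1165 to 2173 with 1 left out. The 2487 time-of-day calls became 1321 on the compared libraries, 5587 with a length correction and 1621 to 2985 with 1 left out. The 346 regimen calls became 124 on the compared libraries, 140 on deposited values and 205 to 411 with 1 left out. The cause was not tested, except that the fits on compared libraries and those with 1 left out hold fewer samples. Other pseudocounts, the low-value filter and median-of-ratios scaling kept every one of these counts within 1.5 times.

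None of the 58 called genes that the naming rule picked changed direction under the 18 alternatives run for each. Of these, 28 stayed called whichever of the 8 libraries was left out, 5 were lost in 1 case, 12 in 2 to 4 and 13 in 5 or more. The deposited values kept 32, NRF ZT0 as reference 47, and pseudocounts of 0.1 and 5 kept 53 each.

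With a replicate block the counts were 425, 2097, 2511 and 365, and 57 of 58 named calls held (Sult2a3 moved to a limma adjusted p of 0.0573). Deviations of same-numbered libraries correlated between -0.01 and 0.13 after feeding and between -0.12 and 0.02 after fasting, so the numbers show no pairing.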

Other observations

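Called genes outside the lists, chosen here after their values were seen and so given without a test of the group, included mitochondrial enzymes that were higher in DRF ZT12. Subunits of branched-chain ketoacid dehydrogenase, which degrades branched-chain amino acids, read 503 ± 33.1 scaled counts (SD, n = 4) in DRF ZT12 and 368 ± 46.0 in NRF ZT24 for Bckdha, and 52.1 ± 3.65 and 39.1 ± 2.95 for Bckdhb, with no overlap. Suclg1, the partner of Suclg2 in succinyl-CoA ligase, read 167 ± 14.3 and 127 ± 14.2. Their log2 differences were 0.45, 0.40 and 0.40 (limma adjusted p = 0.00103, 0.00197 and 0.00463).

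Tripartite motif genes, several of which restrict viruses, were likewise chosen after their values were seen. Of 47 tested, 0 were called higher in DRF ZT12, 40 were not called and 7 were called lower, where 0.759% of all genes were: Trim12c (-0.75), Trim34a (-0.62), Trim12a (-0.55), Trim5 (-0.54), Trim14 (-0.47), Trim56 (-0.35) and Trim21 (-0.32), with limma adjusted p from 0.00101 to 0.0428. Trim12c and Trim34a overlapped between groups, and Trim12a, Trim12c, Trim34a and Trim5 are close paralogues among which reads could be split. Csnk1a1, a casein kinase that phosphorylates period proteins, read 33.7 ± 2.27 in DRF ZT12 and 52.0 ± 0.311 in NRF ZT24 (-0.62, limma adjusted p = 0.00551).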
